A study of Mus musculus with 8 samples.

Results

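Inhibitory and activating receptors that T regulatory (Treg) cells share with other T cells and with NK cells were followed through the transcriptomes of Treg cells with and without Stim1 and Stim2. The genes are Tigit, Cd96 and Cd226, whose products share ligands, together with Havcr2, which encodes TIM-3, and Lag3. They were picked by symbol, and all 5 of the 5 were found among the 52459 genes listed and among the 15419 that were tested, those that averaged 10 normalized counts or more. The data are 8 RNA libraries, 2 per genotype in the unstimulated and in the stimulated state. STIM1 and STIM2 sense an empty calcium store in the endoplasmic reticulum and open the CRAC channel, so the comparison asks which transcripts of Treg cells depend on store-operated calcium entry (SOCE), before and after stimulation of the T cell receptor.

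All cells were labelled Foxp3+CD25+ Treg cells of strain C57BL/6. By the study's methods they were CD4+CD25hi cells sorted from spleen and lymph nodes of female mice that carry floxed Stim1 and Stim2 and 1 copy of Foxp3-YFPcre. Cre is expressed from the X-linked Foxp3 promoter, so that such a female holds YFPcre+ Treg cells, with the labelled alleles Stim1 fl/f and Stim2 fl/fll and the driver Foxp3-YFPcre, called DKO, beside YFPcre- cells, labelled WT, which carry the floxed alleles without expressing Cre. The DKO gate thus selected for a product of the Foxp3 promoter, whereas the WT gate rested on CD4 and CD25 and selected against it. Genotype and this part of the sort gate cannot be told apart. Cells of several mice were pooled for each library, the age of the mice is not given in the sources used here, and p-values measure the spread between such pools. Replicates are numbered 3 and 4 in unstimulated WT cells and 1 and 2 in each other group. Stimulation lasted 16 h, on plate-bound anti-CD3/CD28 at 1 µg/ml. The sources used here name no cells cultured for 16 h without antibody. The labels place the unstimulated libraries on one sequencing lane and the stimulated ones on another. Effects of the antibodies, of 16 h in culture and of the lane therefore cannot be told apart, and all 3 are meant where a change with stimulation is given.

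TIGIT, CD96 and CD226 are cell surface receptors that bind nectins and nectin-like proteins, above all CD155, the product of Pvr. CD226 is activating, TIGIT is inhibitory and competes with it for CD155, and CD96 binds the same ligand. TIM-3 is an inhibitory receptor for galectin-9, CEACAM1 and HMGB1, and LAG-3, a relative of CD4, binds MHC class II. In Treg cells TIGIT, TIM-3 and LAG-3 are known from activated, effector-like cells with strong suppressive function. Calcium entry activates calcineurin and with it NFAT, a transcription factor that binds a GGAAA core, often beside AP-1.

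To show these letters at the receptor genes, the promoter windows from 250 bases before to 50 after the start are given for 3 of the 5 genes, Tigit, Cd96 and Havcr2, from RefSeq (GRCm38.p6). The windows of Cd226 and Lag3 were not used here. Tigit is shown at chr16:43664135-43664434 on the minus strand, Cd96 at chr16:46120199-46120498 on the minus strand and Havcr2 at chr11:46454681-46454980 on the plus strand. The Tigit window surrounds a start that lies inside the span given for the gene further on, not at its outer end. Capitals mark every GGAAA or its reverse TTTCC and every AP-1 motif TGANTCA, which is searched on both strands and overlaps no GGAAA here.
Tigit: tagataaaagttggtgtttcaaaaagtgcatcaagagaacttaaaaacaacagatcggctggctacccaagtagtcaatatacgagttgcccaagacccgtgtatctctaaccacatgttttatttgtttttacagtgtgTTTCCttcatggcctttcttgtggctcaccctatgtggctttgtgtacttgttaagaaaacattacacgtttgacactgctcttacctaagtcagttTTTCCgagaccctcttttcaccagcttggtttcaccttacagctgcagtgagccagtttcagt
Cd96: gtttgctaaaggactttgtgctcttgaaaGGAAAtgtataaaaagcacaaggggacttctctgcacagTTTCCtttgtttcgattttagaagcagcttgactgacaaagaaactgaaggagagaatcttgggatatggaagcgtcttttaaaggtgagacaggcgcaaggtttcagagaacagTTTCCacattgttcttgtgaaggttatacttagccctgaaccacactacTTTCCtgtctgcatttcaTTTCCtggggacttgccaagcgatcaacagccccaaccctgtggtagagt
Havcr2: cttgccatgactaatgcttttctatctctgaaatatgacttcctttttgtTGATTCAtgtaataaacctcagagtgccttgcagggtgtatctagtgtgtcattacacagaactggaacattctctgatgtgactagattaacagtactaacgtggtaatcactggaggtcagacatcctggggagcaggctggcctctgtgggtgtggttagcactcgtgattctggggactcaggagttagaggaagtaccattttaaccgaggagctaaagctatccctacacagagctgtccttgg
The Tigit window held 2 NFAT cores, that of Cd96 held 5 and that of Havcr2 held 0. Among 32851 promoter windows of the same length, 61.3% held at least 1 NFAT core, 26.7% at least 2 and 0.728% at least 5. The AP-1 motif was found 1 time in the Havcr2 window, in neither of the other two, and in 7.81% of all windows.  The matches describe these letters only.

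Between 11851853 and 16306540 reads were counted per library, 1 read equalled 0.759 to 1.48 normalized counts, and intervals of reads cover counting error only. All 6 Treg markers were present in every library. Foxp3 had 10001 and 8159 normalized counts in unstimulated WT, 4947 and 4258 in unstimulated DKO, 8525 and 11918 in stimulated WT and 4474 and 7253 in stimulated DKO libraries. The log2 fold change of Foxp3 between genotypes was -0.98 (limma adjusted p = 0.0591) in unstimulated cells. There 2 of the 6 markers, Ctla4 and Ikzf2, were called lower, as were 3.35% of all genes tested. Stim1 and Stim2 counts, taken over the whole gene, did not check the label. Stim1 had 1139 and 1377 normalized counts in unstimulated WT and 1538 and 1868 in unstimulated DKO libraries, and 645 and 673 against 552 and 642 after stimulation. Stim2 had 906 and 908 against 904 and 744 before stimulation and 665 and 782 against 620.2 and 696 after it. Neither gene was called between genotypes in either state. The study reported loss of both transcripts by RT-PCR in Treg cells of male mice. It also reported that YFP+ Treg cells of heterozygous females lacked SOCE.

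Markers of other cells differed between libraries, and DKO replicate 1 stood apart. The 12 macrophage and monocyte markers summed to 451 and 471 normalized counts in unstimulated WT, 10110 and 1675 in unstimulated DKO, 333 and 202 in stimulated WT and 457 and 366 in stimulated DKO libraries. Of the 11 tested, 7 were called higher in unstimulated DKO libraries, where 1.38% of all genes tested were. The mannose receptor gene Mrc1 had 14.0 and 5.91 normalized counts in unstimulated WT and 2702 and 346 in unstimulated DKO libraries, and was at 0 in all 4 stimulated libraries. The 9 markers of CD8 T and NK cells summed to 653 and 640 in unstimulated WT, 2075 and 554 in unstimulated DKO, 1496 and 657 in stimulated WT and 2196 and 430 in stimulated DKO libraries. None of those 9 genes was called in either genotype comparison, and replicate 1 was the higher library in each of the 3 groups that hold one. The 7 B cell markers were likewise highest in unstimulated DKO replicate 1, at 13527, and lay between 2385 and 6707 in the other libraries. Neutrophil markers summed to 218 and 115 in unstimulated WT and 1009 and 445 in unstimulated DKO libraries. Dendritic cell markers summed to between 231 and 702, with the highest sum in the same library. The 5 receptor genes are also transcribed in CD8 T or NK cells, and Havcr2 and Lag3 in some myeloid cells, and the part of such cells in the results was not tested. In bulk RNA, fewer cells with a transcript and less of it per cell cannot be told apart.

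**Figure D1:**
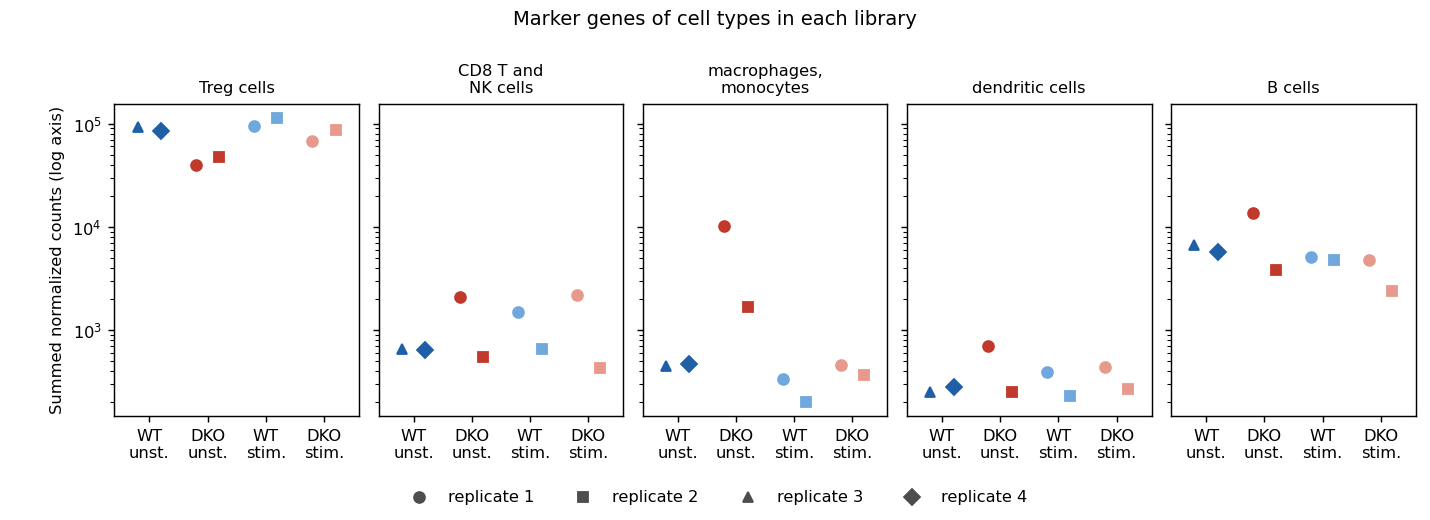
Summed normalized counts (log axis) of the marker genes of 5 cell types in each library, by group on the horizontal axis (unst., unstimulated, and stim., stimulated), with a symbol for each replicate number. The macrophage sum reached 10110 in unstimulated DKO replicate 1, against 202 to 1675 in the other 7 libraries.

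In unstimulated cells, transcripts of the inhibitory receptors TIGIT and TIM-3 were more than 10-fold lower in DKO than in WT Treg cells, whereas those of CD96 and CD226, which share ligands with TIGIT, did not pass the test. Of the 5 genes, 2 were called lower, at a Benjamini-Hochberg adjusted p under 0.05 in limma and more than 1.5-fold, where 3.35% of all genes tested were called lower, and 0 were called higher, against 1.38% of all genes. Both DKO libraries lay below both WT libraries for 3 of the 5, Tigit, Havcr2 and Lag3, which held for 27.1% of all genes tested. The study itself named those 3 genes from these libraries, so their direction here is not independent evidence.

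Tigit lies on chromosome 16 (GRCm38.p6, 43626137 to 43665125) and encodes the inhibitory receptor for CD155. Tigit stood at 3247 and 2959 normalized counts in the WT libraries of unstimulated cells. The DKO libraries had 321 and 200.3. The groups were far apart, and the spread within each was small beside the gap. Their means were 3103 ± 203.9 and 260.6 ± 85.2 (SD, n = 2 each), 11.9-fold lower in DKO cells. On the log2(normalized count + 1) scale, on which all tests were made, the fold change was -3.61 (SE 0.68, 95% interval -5.11 to -2.10, limma adjusted p = 0.0203). Without WT replicate 3 the log2 fold change was -3.54, and without WT replicate 4 it was -3.67. Tigit was not called in either fit, and far fewer of all genes were called in them. The longest transcript models of Tigit run into Zbtb20 on the opposite strand, and whether the counting used strand is not settled by the sources used here.

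Havcr2, on chromosome 11 (46454931 to 46481255), encodes TIM-3. Its normalized counts were 1594 and 1322 in unstimulated WT libraries. In DKO libraries they were 208 and 60.1. Both DKO libraries were low, replicate 2 more so than replicate 1, and the groups did not overlap. The log2 fold change was -3.69 (SE 0.47, 95% interval -4.72 to -2.65, limma adjusted p = 0.00570), or 10.9-fold by the ratio of means. With DKO replicate 1, which had the most macrophage markers, left out, it was -4.57 (adjusted p = 0.00015). With replicate 2 left out it was -2.80 (adjusted p = 0.00173). Without WT replicate 3 or WT replicate 4 it was -3.55 and -3.82. Havcr2 was not called in either fit, and far fewer of all genes were called in them.

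Lag3, on chromosome 6 (124904359 to 124912434), encodes the receptor for MHC class II and was per kb of exon the least abundant of the 5 in unstimulated cells of both genotypes. Lag3 stood at 164 and 139 normalized counts in unstimulated WT cells. Those of DKO cells had 48.2 and 6.68, the latter from 5 reads (95% exact Poisson interval 1.62 to 11.7 reads). The DKO libraries were both lower than the WT libraries but lay far apart from each other. The log2 fold change was -2.97 (SE 1.01, 95% interval -5.21 to -0.72) and was not called (limma adjusted p = 0.121). It was -4.31 without DKO replicate 1 and -1.63 without DKO replicate 2, fits that keep 1 DKO library.

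Cd96 lies on the same chromosome as Tigit (46035652 to 46120248) and encodes a second receptor for CD155. It was at 2826 and 2759 normalized counts in WT libraries without stimulation. In DKO libraries it had 3082 and 2766. The groups overlapped, with a log2 fold change of 0.06 (SE 0.21, limma adjusted p = 0.895) and a 95% interval from -0.40 to 0.53. That interval did not overlap the one of Tigit.

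Cd226, on chromosome 18 (89176954 to 89272232), encodes the activating receptor of the axis. Its normalized counts were 763 and 839 in unstimulated WT libraries. In DKO libraries they were 1222 and 747. The DKO libraries lay on either side of the WT libraries, and the higher of them was replicate 1, which also had the higher sum of CD8 T and NK cell markers. The log2 fold change was 0.26 (SE 0.29, 95% interval -0.39 to 0.90, limma adjusted p = 0.658), and it was -0.10 without DKO replicate 1.

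**Figure D2:**
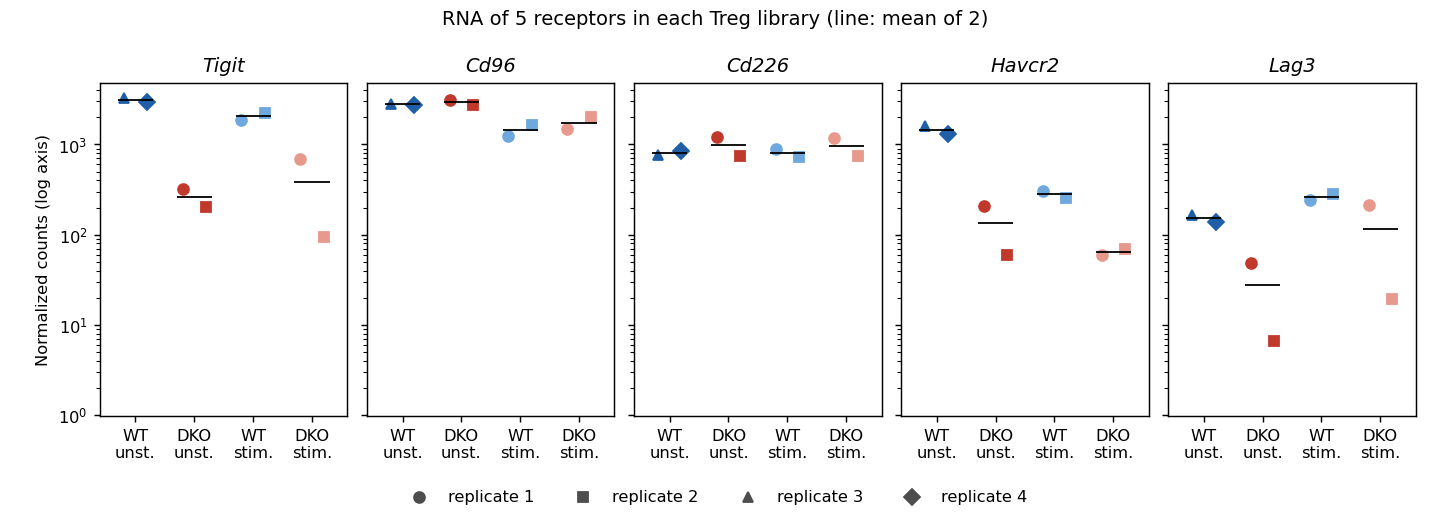
Normalized counts (log axis) of each receptor gene in each library, by group (unst., unstimulated, and stim., stimulated), with a symbol for each replicate number and a line at the mean of the 2 libraries. Tigit and Havcr2 fell from 3247 and 2959, and from 1594 and 1322, to at most 321 and 208 in unstimulated DKO libraries, and Cd96 and Cd226 stayed within overlapping ranges.

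Set against the activating receptor in the same library, and per kb of exon so that the genes can be compared, the inhibitory receptor TIGIT lost its lead in unstimulated DKO cells. The ratio of Tigit to Cd226 per kb was 10.4 and 8.63 in unstimulated WT libraries. In unstimulated DKO libraries it was 0.643 and 0.657. The 2 DKO libraries, which differed in both genes, had nearly the same ratio, far below that of WT. After stimulation the ratio of Tigit to Cd226 was 5.12 and 7.501 in WT libraries and 1.41 and 0.312 in DKO libraries, again without overlap. The ratio of Cd96 to Cd226 per kb was 3.998 and 3.55 in unstimulated WT and 2.72 and 3.998 in unstimulated DKO libraries. In stimulated cells it was 1.52 and 2.47 in WT and 1.34 and 2.93 in DKO libraries, so that the genotypes overlapped in both states. With 2 libraries against 2, an exact permutation test cannot give a two-sided p below 0.333, and none was run on the ratios.

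**Figure D3:**
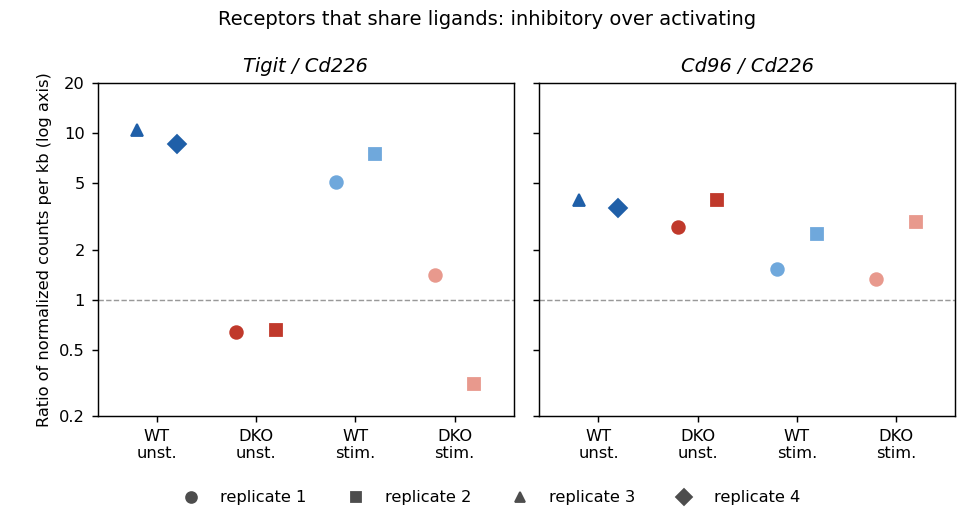
Ratio of the normalized counts per kb of exon of Tigit (left) and Cd96 (right) to those of Cd226 in each library (log axis), by group, with a symbol for each replicate number and a dashed line at 1. The ratio of Tigit to Cd226 was 5.12 or more in the 4 WT libraries and 1.41 or less in the 4 DKO libraries, and that of Cd96 to Cd226 overlapped between genotypes in both states.

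The exon lengths behind these levels are those of GENCODE vM1. The counting may have used other lengths, which would change the order of genes but not the comparison of a ratio between libraries. In unstimulated WT cells, Tigit led with 3222 ± 212 normalized counts per kb (SD, n = 2), followed by Cd96 with 1279 ± 21.7, Havcr2 with 536 ± 70.6, Cd226 with 340 ± 22.8 and Lag3 with 71.8 ± 8.44. No neighbours in this order overlapped between libraries. In unstimulated DKO cells the order was Cd96 with 1339 ± 102, Cd226 with 418 ± 143, Tigit with 271 ± 88.5, Havcr2 with 49.2 ± 38.3 and Lag3 with 13.0 ± 13.9 normalized counts per kb. Across libraries the ranges of Cd226 and Tigit overlapped, at 317 to 518 and 208 to 333 per kb. Within each of the 2 libraries Cd226 lay above Tigit, and Havcr2 lay above Lag3, at 76.3 against 22.9 and 22.1 against 3.17 per kb. In stimulated WT cells Tigit again led with 2125 ± 262 per kb, before Cd96 with 668 ± 131, Cd226 with 343 ± 49.95, Lag3 with 124 ± 14.5 and Havcr2 with 103 ± 13.3. In that group Lag3 lay above Havcr2 in both libraries, at 114 against 112 and 134 against 93.5 per kb. In stimulated DKO cells Cd96 led with 793 ± 171 normalized counts per kb. Cd226 and Tigit followed at 408 ± 135 and 403 ± 432 per kb, and the higher of them was Tigit in replicate 1 and Cd226 in replicate 2. Without division by length Cd226 was the higher in both, at 1186 against 682 and 736 against 93.7 normalized counts. Lag3, at 54.7 ± 64.3, and Havcr2, at 23.7 ± 2.51 per kb, likewise changed places between the replicates.

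After 16 h of stimulation, the same 3 genes had lower means in DKO than in WT cells, but none of the 5 passed the test in limma, a result that some alternatives change. The background in this comparison was low, with 0.110% of all genes called lower and 0.162% called higher by limma. Without adjustment, 1072 genes had a p under 0.05 in the lower direction and 864 in the higher, and DESeq2 called 299 lower and 251 higher. Both DKO libraries lay below both WT libraries for 3 of the 5 genes, against 23.1% of all genes tested.

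Tigit had 1868 and 2225 normalized counts in stimulated WT libraries. The DKO libraries had 682 and 93.7. The groups did not overlap, but the DKO libraries were far apart themselves. The log2 fold change was -3.00 (SE 0.68, 95% interval -4.51 to -1.499, limma adjusted p = 0.0874). Without DKO replicate 1, which had the higher sum of CD8 T and NK cell markers, it was -4.43, and without replicate 2 it was -1.58. With quantile normalization Tigit was called (adjusted p = 0.0426), and over all alternatives the adjusted p ran from 0.000823 to 0.436.

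Havcr2 had 306 and 254 normalized counts in stimulated WT libraries. The DKO libraries had 59.6 and 69.2. Here the replicates lay close together in both genotypes, and the groups were well apart. The log2 fold change was -2.10 (SE 0.47, 95% interval -3.14 to -1.06), with a limma adjusted p of 0.0832. It stayed between -2.23 and -1.97 in the 15 alternatives, of which 2 gave a call, one of them DESeq2 (adjusted p = 0.000119).

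Lag3 had 240.05 and 283 normalized counts in stimulated WT libraries. The DKO libraries had 211 and 19.4. The first of these was close to WT and the second far below, so that the log2 fold change of -1.99 had an SE of 1.01 (limma adjusted p = 0.428). It was -3.68 without DKO replicate 1 and -0.30 without DKO replicate 2. For Cd96 the counts were 1256 and 1662 in stimulated WT and 1469 and 1996 in stimulated DKO libraries, with a log2 fold change of 0.24 (95% interval -0.22 to 0.71). For Cd226 they were 892 and 726 in WT and 1186 and 736 in DKO libraries, with a log2 fold change of 0.22 (95% interval -0.43 to 0.86). The groups overlapped for both genes.

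**Figure D4:**
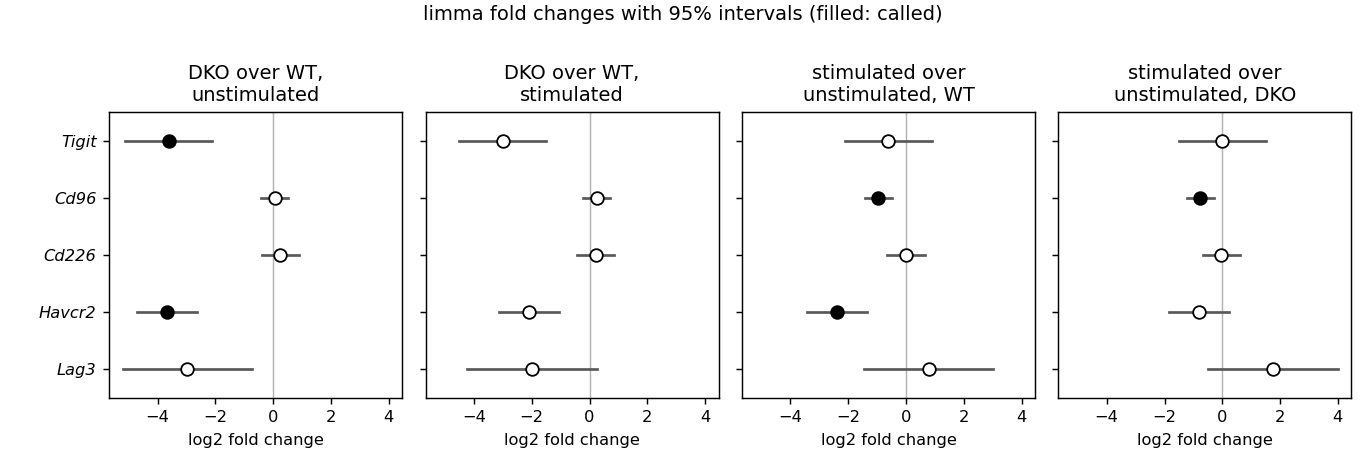
Log2 fold changes of the 5 receptor genes with 95% intervals from limma, for DKO over WT in each state and for stimulated over unstimulated cells in each genotype (horizontal axis, log2). Filled circles are called genes, Tigit and Havcr2 in the first panel, Cd96 and Havcr2 in the third and Cd96 in the fourth.

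With stimulation, Cd96 fell in both genotypes and Havcr2 in WT cells. In WT cells, 2 of the 5 genes were called lower, where 13.1% of all genes were, and 0 were called higher, where 10.2% of all genes were. Stimulated and unstimulated WT libraries did not overlap for 3 genes that were lower, Tigit, Cd96 and Havcr2, against 36.0% of all genes, and for 1 that was higher, Lag3, against 35.0%. Havcr2 went from 1594 and 1322 to 306 and 254 normalized counts, 5.21-fold by the ratio of means, with a log2 change of -2.38 (SE 0.47, limma adjusted p = 0.00673). Its call was lost without WT unstimulated replicate 3 or 4 or WT stimulated replicate 2, fits in which fewer of all genes were called. Cd96 went from 2826 and 2759 to 1256 and 1662, a log2 fold change of -0.95 (SE 0.21, limma adjusted p = 0.0111). Cd96 lost its call without WT unstimulated replicate 3 or 4 and without WT stimulated replicate 1, again with fewer of all genes called.

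The values are relative to a scaling that holds the median gene level. With all libraries rescaled to equal totals the median log2 fold change of all genes moved by 0.51 in WT and by 0.38 in DKO cells. The fall of Cd96 in WT cells was then -0.43 and was not called, but relative to the median of all genes it was -0.95 under equal totals and -0.96 as deposited. Havcr2 was likewise -2.37 and -2.38 relative to that median.

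Tigit went from 3247 and 2959 to 1868 and 2225 normalized counts in WT cells, and Lag3 from 164 and 139 to 240.05 and 283. The log2 fold changes were -0.60 for Tigit (limma adjusted p = 0.551) and 0.78 for Lag3 (adjusted p = 0.609), each tested against a spread that the DKO libraries share. In a fit of the 4 WT libraries alone the limma adjusted p values were 0.00626 and 0.0302, and 4 of the 5 genes were called. That fit called 2746 of all 15419 genes lower and 2319 higher, against 2013 and 1580 in the main fit. Cd226 had a log2 fold change of 0.01 in WT cells (95% interval -0.64 to 0.65).

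In DKO cells, 1 of the 5 genes was called lower with stimulation, Cd96, where 12.0% of all genes were, and 0 were called higher, where 13.0% were. Cd96 went from 3082 and 2766 to 1469 and 1996, a log2 fold change of -0.77 (SE 0.21, limma adjusted p = 0.0240). It was the 1 gene of the 5 whose stimulated DKO libraries were both below the unstimulated ones, as 30.6% of all genes were. The call was lost without DKO stimulated replicate 1 (-0.55, adjusted p = 0.141), with quantile normalization (adjusted p = 0.0756) and in a fit of the 4 DKO libraries alone (adjusted p = 0.0932). Under equal totals it was -0.38 and not called (adjusted p = 0.201), and relative to the median of all genes -0.73 against -0.74 as deposited.

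The other receptors moved differently in the replicates of DKO cells. Tigit was 321 and 200.3 in unstimulated and 682 and 93.7 in stimulated DKO libraries, so that the stimulated libraries lay on either side of the unstimulated ones. Its log2 fold change of -0.0012 had a 95% interval from -1.51 to 1.503. It was -1.43 without DKO stimulated replicate 1 (adjusted p = 0.0177) and 1.42 without DKO stimulated replicate 2 (adjusted p = 0.0150), called in opposite directions. Lag3 went from 48.2 and 6.68 to 211 and 19.4 (log2 fold change 1.76, SE 1.01, limma adjusted p = 0.223). Each stimulated DKO library of Lag3 was higher than the unstimulated one of the same number, but the groups overlapped. The call of Lag3 was gained without DKO unstimulated replicate 1 (3.10, adjusted p = 0.0435) or DKO stimulated replicate 2 (3.45, adjusted p = 0.0255). For Havcr2 the change was -0.79 on the log2 scale (limma adjusted p = 0.235), and without DKO unstimulated replicate 2 it was -1.68 and called (adjusted p = 0.00489), whereas without DKO unstimulated replicate 1 it was 0.094 (adjusted p = 0.845). Cd226 had one of -0.03 (95% interval -0.68 to 0.61).

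Whether stimulation changed the gap between genotypes was tested as an interaction. limma called 0 of the 5 genes, as it called 0 of 15419 genes in all, while 543 had an unadjusted p under 0.05 in the negative and 704 in the positive direction, and DESeq2 called 13 and 37 genes. The gap of Havcr2 was narrower by 1.58 on the log2 scale after stimulation (95% interval 0.12 to 3.05, unadjusted p = 0.0367 in limma, adjusted p = 0.584). Those of Tigit and Lag3 were narrower by 0.60 (95% interval -1.53 to 2.73) and 0.97 (95% interval -2.20 to 4.15), and both intervals include 0. A call of Tigit and Havcr2 in unstimulated and not in stimulated cells is thus not shown to be a difference between the states.

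Of the ligands of the axis, nectins and nectin-like proteins, 5 of 6 were tested. In unstimulated DKO cells 1 was called lower and 0 higher, where 3.35% and 1.38% of all genes were. The gene called was Nectin1, an adhesion molecule, with 22.7 and 20.7 normalized counts in WT and 2.10 and 0 in DKO libraries. The median log2 fold change of the 5 was 0.58, beside -0.01 for all genes. Pvr, which encodes CD155, had 1687 and 1505 normalized counts in unstimulated WT and 1797 and 3144 in DKO libraries (log2 fold change 0.58, limma adjusted p = 0.211). Pvr was lower in stimulated than in unstimulated cells, both in WT (-1.03, limma adjusted p = 0.0156) and in DKO cells (-0.86, adjusted p = 0.0304). In DKO cells Cadm1 was also called lower and Nectin1 higher with stimulation, each with one group at no more than 3 reads in either library, so that no fold is given. Cadm1 encodes the ligand of CRTAM and was at 161 and 21.4 in unstimulated DKO libraries, where macrophage markers were high, and at no more than 4.32 in the other 6 libraries. The receptors Pvrig and Crtam of the same family were not called in any comparison. Pvrig, an inhibitory receptor, had 64.8 and 62.0 normalized counts in unstimulated WT and 24.1 and 4.01 in DKO libraries (limma adjusted p = 0.244).

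Among TIM-3 ligands and relatives, 0 of 6 tested genes were called in either genotype comparison, with median log2 fold changes of 0.27 and 0.18. Hmgb1, a nuclear protein that TIM-3 binds when it is released, was lower in stimulated than in unstimulated DKO cells (-1.34, limma adjusted p = 0.0194). Of the homologue, ligands and sheddases of LAG-3, 0 of 7 tested were called between genotypes in either state. Cd4, which encodes the coreceptor related to LAG-3, was lower with stimulation in WT (-0.997) and DKO cells (-0.88). Adam17, one of the proteases that shed LAG-3, was lower with stimulation in WT cells (-0.70, limma adjusted p = 0.0147). Of 11 signalling partners of the receptors, 0 were called between genotypes, and the medians were -0.03 in unstimulated and 0.22 in stimulated cells. With stimulation, 4 of the 11 were called lower in WT cells, where 13.1% of all genes were. They were the adaptor gene Grb2 (-1.31), the kinase gene Fyn (-1.21), the phospholipase gene Plcg1 (-1.15) and the integrin gene Itgal (-0.62). In DKO cells 3 were called lower, where 12.0% of all genes were. They were Plcg1 (-1.0), Fyn (-0.80) and Inpp5d (-0.76), which encodes the phosphatase SHIP1 that TIGIT recruits. Each of the falls with stimulation given for listed genes exceeds the shift of 0.51 in WT or 0.38 in DKO cells that equal totals bring. This bears on the direction of a fall and not on its size or call. Cd96 in WT cells also fell by more than that shift and lost its call under equal totals. The calls of the listed genes under that scaling are not given here.

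Among the genes of the lists, all those called between genotypes other than Nectin1 were mediators of suppression or transcription factors. Of 6 mediators linked to TIGIT-positive Treg cells, 2 were called lower and 0 higher in unstimulated DKO cells, and their median log2 fold change was -2.38. Il10, which encodes the suppressive cytokine IL-10, had 885 and 923 normalized counts in unstimulated WT and 50.3 and 56.1 in DKO libraries (log2 fold change -4.06, SE 0.36, limma adjusted p = 0.00106). Gzmb, which encodes granzyme B, had 1714 and 949.8 in WT and 156 and 115 in DKO libraries (-3.24, adjusted p = 0.0234). Both genes were several times lower in DKO cells without overlap. The study itself named Il10 as lower from these libraries, so its direction here is not independent evidence. The list of mediators was chosen with earlier results of these data known. After stimulation Il10 was still called lower, with 779 and 870.1 against 253 and 104 (-2.34, adjusted p = 0.0393). The same 2 genes rose with stimulation in DKO cells, Il10 by 1.59 and Gzmb by 2.97 on the log2 scale. There 13.0% of all genes were called higher, and 0 of the 6 mediators were called in WT cells. In stimulated DKO libraries Gzmb stood at 2491 in replicate 1 and 449.99 in replicate 2, and Gzma, a marker of CD8 T and NK cells, at 588 and 43.9, and the part of such cells in the rise of Gzmb was not tested. The difference between genotypes in the change with stimulation was not called for either gene.

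Of 15 transcription factors linked to inhibitory receptors, 6 were called lower and 0 higher in unstimulated DKO cells, and the median log2 fold change was -0.69. Prdm1, which encodes Blimp-1 of effector Treg cells, had 2050.4 and 1637 normalized counts in WT and 382 and 196 in DKO libraries (-2.74, limma adjusted p = 0.00538). Nfil3, a factor linked to Havcr2 and Il10 in T cells, had 1429.9 and 1197 in WT and 135 and 337 in DKO libraries (-2.61, adjusted p = 0.0189). For both factors the DKO libraries were low, though the lower library was replicate 2 for Prdm1 and replicate 1 for Nfil3. Batf and Irf4, which act together downstream of the T cell receptor, had log2 fold changes of -2.07 (adjusted p = 0.00593) and -1.90 (adjusted p = 0.00880). Maf and Nfatc1 were also called, at -1.74 and -0.80. The study itself named Prdm1, Batf, Irf4 and Maf as lower from these libraries. Their direction here is thus not independent evidence, and the list was chosen with earlier results of these data known. After stimulation 1 of 15 was called lower, where 0.110% of all genes were. It was Batf, with 1379 and 1186 normalized counts in WT and 464 and 305 in DKO libraries (-1.76, limma adjusted p = 0.0393). Irf4 then had 12882 and 11469 in WT and 13241 and 6722 in DKO libraries, and the groups overlapped.

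**Figure D5:**
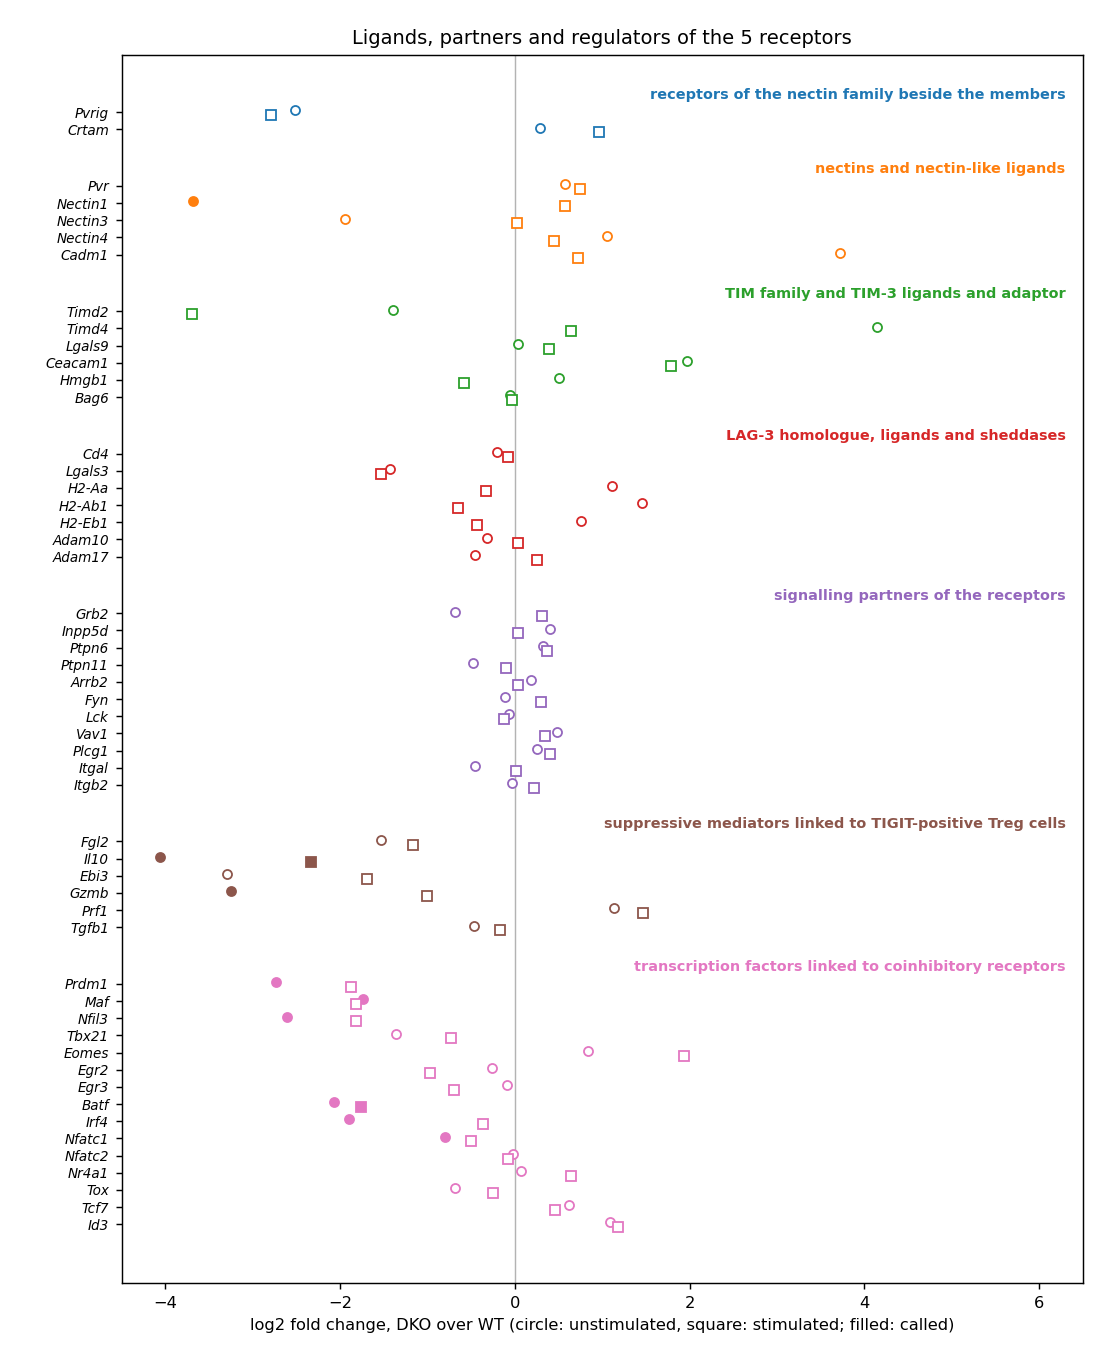
Log2 fold changes (horizontal axis) of DKO over WT for each tested gene of the lists of ligands, partners and regulators, with circles for unstimulated and squares for stimulated cells, filled where called. Filled symbols lie among the mediators (Il10, Gzmb) and the transcription factors, with Nectin1 the 1 other, and 0 of the 11 signalling partners are filled. For genes near 3 reads per library, Nectin1 among them, the fitted value depends on the pseudocount.

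With stimulation, 4 of the 15 factors were called lower and 4 higher in WT cells, where 13.1% and 10.2% of all genes were. In DKO cells 3 were called lower and 5 higher, where 12.0% and 13.0% of all genes were. Tbx21, which encodes T-bet, rose by 3.55 in WT and 4.18 in DKO cells on the log2 scale, Irf4 by 1.79 and 3.32, and Egr2, an early response factor, by 2.37 and 1.66. Of the 5 receptor genes, 0 were called higher in either genotype, with log2 fold changes of Lag3 of 0.78 in WT and 1.76 in DKO cells.

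Across the 8 libraries, Tigit, Havcr2 and Lag3 followed one another in part, with a Pearson correlation of log2 values of 0.81 between Tigit and Havcr2, 0.84 between Tigit and Lag3 and 0.52 between Havcr2 and Lag3. Cd96 and Lag3 ran opposite (r = -0.51), and Cd226 was within 0.21 of 0 with each other receptor gene. The libraries share 4 groups, so such values describe the group pattern. Among the 9147 tested genes that averaged 100 normalized counts or more, the patterns most like that of Tigit were those of Atp2b4 (r = 0.993), which encodes a plasma membrane calcium pump, Ckap2 (r = 0.991) and Brip1 (r = 0.988). For Havcr2 they were Sec11c (r = 0.985), Gm2a (r = 0.983) and Rab27a (r = 0.981), and for Lag3 Cenph (r = 0.992), Alcam (r = 0.977) and Brca2 (r = 0.974). For Cd96 they were Zkscan14 (r = 0.992), the glucose transporter gene Slc2a3 (r = 0.988) and Trbv3 (r = 0.986). For Cd226 the closest were Cd79b (r = 0.939), which encodes a chain of the B cell receptor, Rnf13 (r = 0.936) and Marcks (r = 0.921). Cd79b was also one of the B cell markers, and it was higher in replicate 1 than in replicate 2 in the 3 groups numbered so, as Cd226 was.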

How the data were processed

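RNA of sorted Treg cells was sequenced in 8 libraries. In the deposited table, the signal is a count of reads that the authors had scaled by a size factor, 1 for each library. Division gave whole reads for 100% of entries (tolerance 0.006 normalized counts). The methods name Bowtie, NCBIM37, HTSeq and a TruSeq RNA kit, whereas the submitters' processing notes name STAR 2.7, bcl2fastq 1.8.4 and mm10, with a stranded kit in the labels. Both name DESeq2. Of 52459 symbols, 66.9% were found in RefSeq GRCm38.p6 and 54.9% in GENCODE vM1 (NCBIM37), so positions are those of GRCm38.p6.

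After a pseudocount of 1 was added, log2 values were modelled in limma 3.58.1 (R 4.3.3, eBayes with a trend, 4 group means, genes with a mean of at least 10), two-sided, with Benjamini-Hochberg adjustment over all genes in each of 5 contrasts, checked on simulated data. limma was used because the deposited values are not raw counts. Alternatives were pseudocounts of 0.1 and 5, other filters, 3 other scalings, edgeR 4.0.16 and DESeq2 1.42.0 on recovered reads, the 4 libraries of a contrast alone, thresholds of 2-fold or of the unadjusted p, a replicate block and each library left out. Replicates of each group differed beyond sampling noise.

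The receptor genes were named in every comparison, list genes where called (at most 4 by size per list and comparison, with Maf, Nfatc1, Gzma, Pvr, Pvrig and the repeat of Irf4 added after their values were seen), and for each receptor gene the 3 genes of highest correlation. The genes and lists were chosen with earlier results of these data known.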

Additional observations from a re-analysis of the deposited data

How the results depend on the processing

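The tests were recomputed under the alternatives for each receptor gene and comparison. Of 375 such values, 320 kept their direction and side of the threshold, 16 lost and 15 gained a call, and 24 changed sign. The number of genes called lower or higher among the 5 was 2 between genotypes in unstimulated cells in every alternative but the unadjusted p (3) and the libraries left out (0 to 3), where 0 came without WT replicate 3 or 4. In stimulated cells it went from 0 to 1 with quantile normalization (Tigit) and DESeq2 (Havcr2), and to 2 with the unadjusted p. Leaving out libraries gave 0 to 2. For stimulation in WT cells, 2 became 1 under equal totals, quantile normalization and a 2-fold threshold, 4 in the 4 libraries alone, and 0 to 1 with a library left out. In DKO cells, 1 became 0 under equal totals, quantile normalization, the 4 libraries alone and a 2-fold threshold, 2 with DESeq2 (Cd96 and Havcr2), and 1 to 3 with a library left out. For the interaction, 0 became 1 (Havcr2) with the unadjusted p.

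The stimulated groups share replicate numbers, as do the DKO groups, without a statement that a number marks shared mice. Differences between replicates correlated at 0.167 over genes between genotypes in stimulated cells and at 0.257 between DKO states. With the replicate block, 2 of the 5 genes were called between genotypes in stimulated cells, Tigit (adjusted p = 0.0431) and Havcr2 (adjusted p = 0.0262), and 2 with stimulation in DKO cells, Cd96 (adjusted p = 0.0470) and Lag3 (adjusted p = 0.0174). The block gave 202 lower and 191 higher calls over all genes between stimulated genotypes, against 17 and 25 without it. With stimulation in DKO cells it gave 2224 lower and 1870 higher calls over all 15419 genes, against 1855 and 1997 without it.

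With stimulation in DKO cells, the log2 fold change of Tigit changed sign to 0.0098 with a pseudocount of 5, 0.39 under equal totals, 0.56 with edgeR and 0.56 with DESeq2, and that of Cd226 to 0.36 under equal totals. With 1 library left out, values that crossed 0 ran from -0.014 to 0.14 (Cd96) and -0.10 to 0.61 (Cd226) between genotypes in unstimulated cells, from -0.13 to 0.56 (Cd226) between genotypes in stimulated cells, from -0.14 to 0.16 (Cd226) with stimulation in WT cells, from -1.43 to 1.42 (Tigit), -0.39 to 0.32 (Cd226) and -1.68 to 0.094 (Havcr2) with stimulation in DKO cells, from -0.82 to 2.03 (Tigit), -0.040 to 0.40 (Cd96), -0.39 to 0.32 (Cd226) and -0.71 to 2.66 (Lag3) for the interaction. When an arm keeps 1 library, that library is assumed to vary like the other groups. Such fits also changed how many of all genes were called. A call lost or gained in them is therefore not particular to a receptor gene. The causes of these changes were not tested. With 2 libraries per group, and 5 reads of Lag3 in 1 of them, differences within the intervals given were not detectable.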
